A study of Homo sapiens with 12 samples.

Results

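The 36 genes described here encode cytosolic heat shock chaperones, their co-chaperones and regulators, and the subunits of the chaperonin TRiC. They were taken by gene symbol from the 60617 genes counted in the deposited files, and all 36 were found. Of these, 35 averaged at least 1 read count per library and were tested with 22756 genes in all. Despite the group's usual name, HSPA9, HSPD1 and HSPE1 encode mitochondrial chaperones, and HSF1 and HSF2 encode transcription factors.

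The cells were 12Z, an immortalized line of human endometriotic epithelium, and their transcriptomes were read by RNA-seq in 4 groups of 3 libraries. The libraries of a group came from independent experiments, as the study's methods state. The groups were H1047R cells with insulin, H1047R cells with vehicle, control cells with insulin and control cells with vehicle. All cells first received non-targeting siRNA, then a pBabe plasmid carrying PIK3CA H1047R, an activated form of the PI3-kinase catalytic subunit (H1047R cells), or empty pBabe (control cells). After 4 h without serum they were given 100 nM insulin or vehicle in serum-free medium for 24 h. The plasmid was transfected transiently into a single cell line, so a library mixes cells that did and did not take it up, and fewer cells expressing a gene cannot be told apart from less RNA per cell. The p-values below measure the spread between these libraries.

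Chaperones bind unfolded segments of proteins and release them for folding, and many are made in larger amounts when unfolded protein builds up. HSP70 works in cycles of ATP binding and hydrolysis, with DNAJ proteins delivering substrate and HSP110 proteins exchanging nucleotide, and passes some substrates through STIP1 to HSP90. TRiC is a double ring that folds actin and tubulin inside its chamber, and HSF1 is the transcription factor that switches on heat shock genes by binding repeats of a short element in their promoters.

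The libraries held about 30072000 to 37918000 gene counts in the H1047R insulin group and 21483100 to 29255700 in the other groups. PIK3CA, whose reads come from both the plasmid and the cell's own gene, was at 734, 714 and 715 CPM, counts scaled to a common library size by edgeR, in H1047R insulin libraries, 312, 180 and 215 CPM in H1047R vehicle libraries, 81.0, 85.9 and 80.9 CPM in control insulin libraries, and 89.0, 88.2 and 88.6 CPM in control vehicle libraries. The plasmid groups were thus separated from the control groups, and the level was higher with insulin than with vehicle in H1047R cells. Reads that mapped to several places made up 8.48% to 9.51% of reads in H1047R insulin libraries and 13.6% to 15.4% in the other libraries. Averaged over all 12 libraries, 7 of 8 epithelial markers, all 6 mesenchymal and 2 of 3 endothelial markers were at 1 CPM or more. EPCAM and all 4 leukocyte markers were below it, with CD3E at 0 in every library. Single groups differed: endothelial CDH5 was at 0.59 to 0.72 CPM in H1047R insulin libraries, and leukocyte PTPRC at 0.80 to 1.36 CPM in control insulin libraries. The summed mesenchymal marker level was 7079 to 7416 CPM in H1047R insulin libraries, 8795 to 9193 CPM in H1047R vehicle libraries, 7806 to 8127 CPM in control insulin libraries, and 8557 to 9243 CPM in control vehicle libraries. Within that sum VIM, the cytoskeletal protein vimentin, lay the other way, at 2251 to 2348 CPM in H1047R insulin libraries and 1966 to 2186 CPM in H1047R vehicle libraries. The summed epithelial level was 3285 to 3304 CPM in H1047R insulin libraries and 2921 to 3263 CPM in the other libraries. KRT18 and KRT19 were highest in the H1047R insulin group, but KRT7 was lowest, at 47.9 to 49.3 CPM against 51.9 to 63.2 CPM in the others. The summed endothelial level was 4.92 to 5.23 CPM in H1047R insulin libraries and 2.61 to 4.59 CPM in the others. VWF was higher in H1047R insulin libraries, at 3.77 to 4.11 CPM against 1.55 to 2.53 CPM, while CDH5 was lower, at 0.59 to 0.72 CPM against 0.91 to 1.96 CPM. Mitochondrial genes took 2.16% to 2.20% of counts in H1047R insulin libraries, 2.78% to 2.90% in H1047R vehicle libraries, 2.45% to 2.58% in control insulin libraries and 2.92% to 2.96% in control vehicle libraries. The part of the marker shift, the mitochondrial share, the read mapping difference and the plasmid level in the results below was not tested.

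The element that heat shock factors bind is built of inverted GAA repeats, and promoters of the members were searched for 3 such repeats in a row, GAANNTTCNNGAA or its reverse complement TTCNNGAANNTTC, where N is any base. The windows were RefSeq promoters on GRCh38.p14, each 250 bases before to 50 bases after a start. Of 31 members with a window, 7 held a match, which is 22.6%, against 166 of 27305 genes with a window, or 0.608%. The list was chosen to hold heat shock genes and their partners, so a higher share among members comes with that choice. The members with a match were CHORDC1, HSP90AA1, HSP90AB1, HSPA8, HSPD1, DNAJA1 and DNAJB6, and none of the 7 TRiC genes with a window held one. FKBP4, ST13, CRYAB, HSF1 and CCT6A had no window. The stretches upstream of the RefSeq start are shown for 6 of these genes, because 4 of them (CHORDC1, HSP90AA1, HSP90AB1 and HSPD1) rose with insulin in H1047R cells, and HSPA8 and DNAJB6 hold the element but were not called. Capitals mark the matches, in which neighbouring matches may overlap. The stretches were chr11:90223067-90223129 on the minus strand for CHORDC1, chr14:102087100-102087152 on the minus strand for HSP90AA1, chr6:44247758-44247810 and chr6:44247811-44247863 on the plus strand for HSP90AB1, chr11:123062334-123062386 and chr11:123062159-123062211 on the minus strand for HSPA8, chr2:197500048-197500090 on the minus strand for HSPD1, and chr7:157336853-157336905 on the plus strand for DNAJB6. All but the CHORDC1 stretch lie inside the span that the GENCODE annotation gives the gene, which also holds transcripts with starts further upstream. A match is a description of the letters in the window, not evidence that a factor bound there. Only exact matches inside the window were counted, so a gene without a match may still hold an imperfect or more distant element.
CHORDC1: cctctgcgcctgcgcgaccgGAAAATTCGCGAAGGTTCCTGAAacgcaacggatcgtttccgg
HSP90AA1: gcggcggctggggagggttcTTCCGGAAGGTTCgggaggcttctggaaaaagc
HSP90AB1, upstream: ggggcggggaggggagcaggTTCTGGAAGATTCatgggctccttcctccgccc
HSP90AB1, nearer the start: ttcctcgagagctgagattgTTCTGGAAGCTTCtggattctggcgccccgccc
HSPA8, upstream: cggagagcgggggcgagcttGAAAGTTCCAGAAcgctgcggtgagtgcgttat
HSPA8, nearer the start: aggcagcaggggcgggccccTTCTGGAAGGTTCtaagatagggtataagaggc
HSPD1: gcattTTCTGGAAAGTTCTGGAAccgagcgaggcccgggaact
DNAJB6: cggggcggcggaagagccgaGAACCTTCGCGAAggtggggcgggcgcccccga

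The first comparison asks what insulin did in cells carrying PIK3CA H1047R. At least 1 member of each of the 7 roles rose with insulin in H1047R cells, by small amounts. At a false discovery rate of 0.001, 18 of 35 tested members rose and 1 fell, while 9.85% of all genes tested rose and 9.8% fell, 19.6% in all. Since most members are abundant, the share is also given among genes averaging at least 10 CPM, of which 17.9% rose and 19.5% fell, against 18 and 1 of 32 members. The median log2 difference of the members was 0.18, and that of all genes was 0.00. Libraries of the H1047R insulin and H1047R vehicle groups did not overlap for 25 of 35 members, and for 44.8% of all genes. No member changed by as much as a doubling. The members together took 1.27% to 1.30% of gene counts in H1047R insulin libraries, 1.11% to 1.16% in H1047R vehicle libraries, 1.19% to 1.22% in control insulin libraries and 1.09% to 1.12% in control vehicle libraries.

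**Figure D1:**
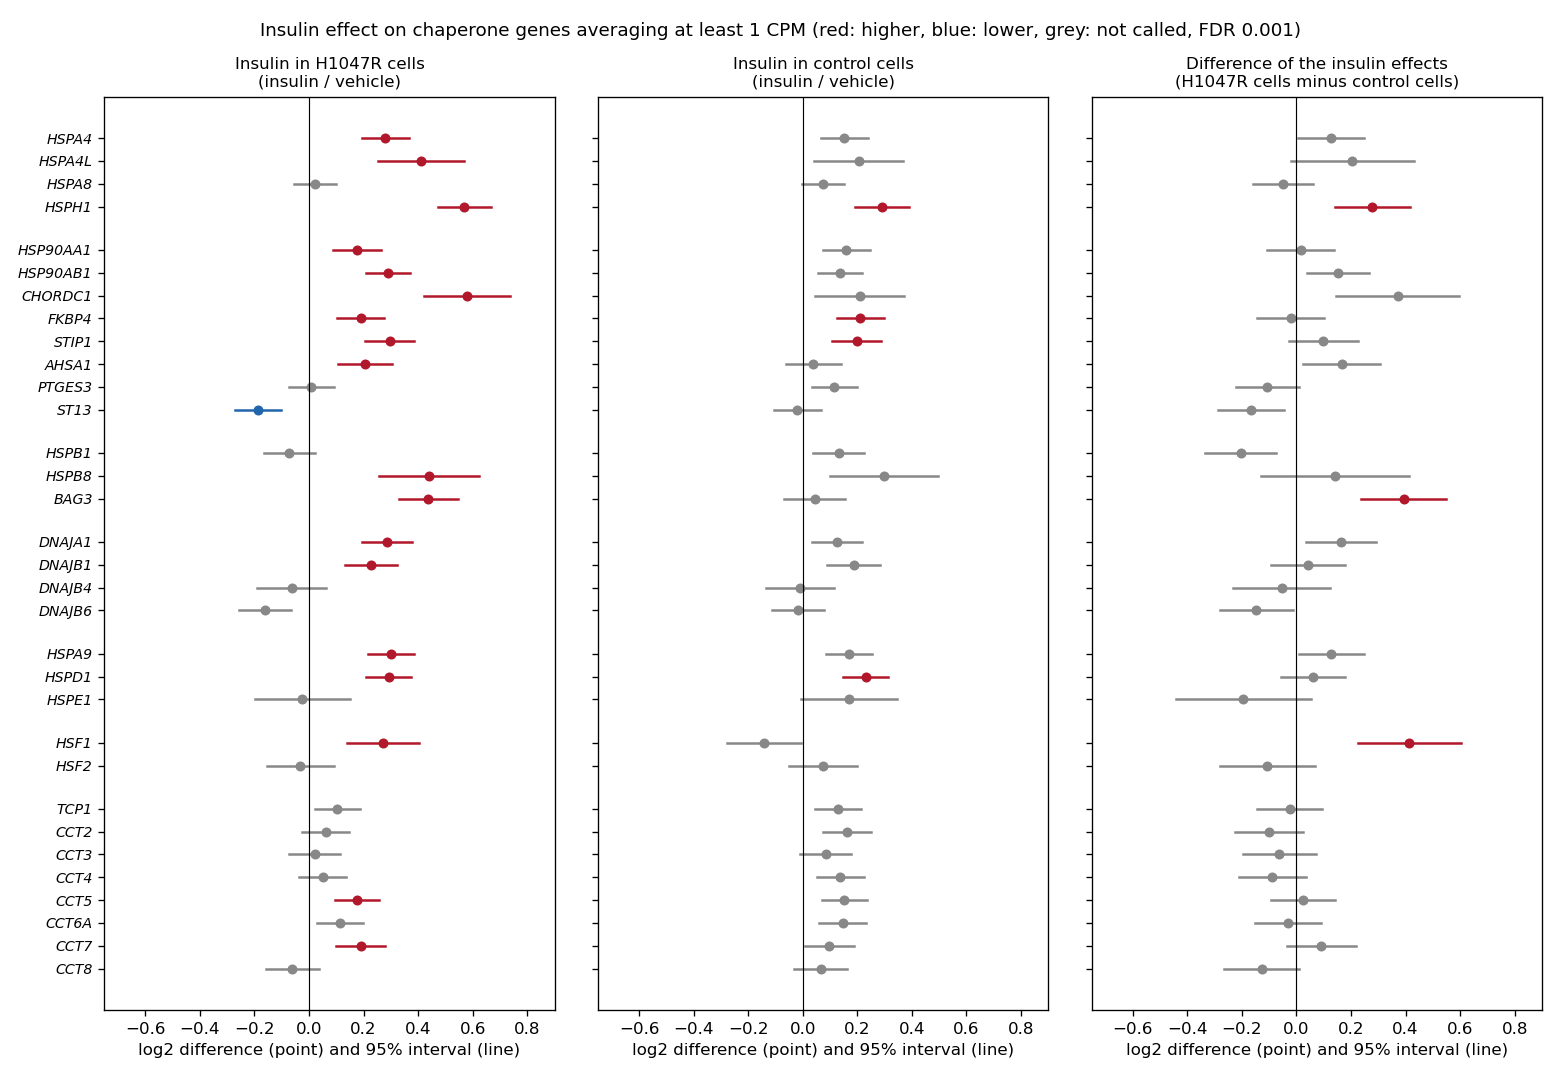
The insulin effect on each chaperone gene averaging at least 1 CPM, as the log2 difference (point) with its 95% interval (line), in H1047R cells (left), in control cells (middle) and as the difference of the 2 effects (right), with red for called higher, blue for called lower and grey for not called. In H1047R cells 18 members were higher and ST13 was lower, in control cells 4 were higher, and the effects differed for HSPH1, BAG3 and HSF1.

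Among the HSP70 and HSP110 genes, the nucleotide exchange factors rose and the main HSP70 was not called. HSPH1, which encodes an HSP110 protein (chr13:31134973-31162388, minus strand), was at 271, 265 and 258 CPM in H1047R insulin libraries, 184, 168 and 183 CPM in H1047R vehicle libraries, 209, 204 and 194 CPM in control insulin libraries, and 163, 173 and 160 CPM in control vehicle libraries. The H1047R insulin libraries stood above all others, and the control insulin libraries stood above both vehicle groups. HSPH1 rose with insulin in H1047R cells by 0.57 ± 0.042 on the log2 scale (SE, edgeR adjusted p = 2.08e-14), a fold change of 1.48. HSPA4L, another HSP110 relative (chr4:127781821-127840733, plus strand), was at 20.4, 22.3 and 23.7 CPM in H1047R insulin libraries, 16.9, 17.3 and 15.9 CPM in H1047R vehicle libraries, 19.0, 19.9 and 18.5 CPM in control insulin libraries, and 17.0, 16.6 and 16.2 CPM in control vehicle libraries. All H1047R insulin libraries were above every other library, and HSPA4L rose in H1047R cells by 0.41 ± 0.068 (adjusted p = 4.67e-06). HSPA4, the third HSP110 member (chr5:133052013-133106449, plus strand), was at 407, 397 and 406 CPM in H1047R insulin libraries, 329, 332 and 336 CPM in H1047R vehicle libraries, 374, 356 and 373 CPM in control insulin libraries, and 323, 347 and 323 CPM in control vehicle libraries. Its groups with insulin did not overlap those with vehicle, and it rose in H1047R cells by 0.28 ± 0.037 (adjusted p = 5.72e-08). HSPA8, the constitutive HSP70 and the member with the highest level per transcript length, averaged 1557 ± 11.1 CPM in H1047R insulin libraries and 1533 ± 43.9 CPM in H1047R vehicle libraries (SD, n = 3 each). The log2 difference was 0.02 with a 95% interval of -0.05 to 0.10, and the groups overlapped.

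The stress-inducible HSP70 genes HSPA1A and HSPA1B had few or no counts in every library. HSPA1A had 1, 2 and 6 counts in H1047R insulin libraries, 1, 4 and 3 counts in H1047R vehicle libraries, 7, 3 and 1 counts in control insulin libraries, and 1, 4 and 5 counts in control vehicle libraries, with all groups overlapping. HSPA1B had 0 counts in all 12 libraries and was not tested. Their transcripts share 73.7% and 73.6% of 50-base words with transcripts of other genes, so that reads from them are hard to place uniquely. In the same stretch of chromosome 6, CSNK2B and DDX39B, genes that most cells use, also had 0 counts in every library; these were chosen after their values were seen. HSPA1L, a further HSP70 gene looked at, had 0 to 5 counts a library. Why these counts are so low was not tested, so those of HSPA1A and HSPA1B are not read here as low levels. HSPA6, a strictly heat-inducible HSP70 gene looked at after its values were seen, had 13, 15 and 16 counts in H1047R insulin libraries, 6, 1 and 2 counts in H1047R vehicle libraries, 1, 0 and 1 counts in control insulin libraries, and 0, 2 and 0 counts in control vehicle libraries, all below 1 CPM. It was called higher in H1047R cells than in control cells with insulin (adjusted p = 0.00011), and in no other comparison. Among the other members near the limit of detection, CRYAB, a small heat shock protein, had 2 to 11 counts a library, and DNAJA4 had 5 to 23 counts, and neither was called in any comparison.

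Of the 8 HSP90 genes and co-chaperones, 6 rose and 1 fell with insulin in H1047R cells, the most calls of any role. The roles differ in size, from 2 to 8 members. Of all genes 9.85% rose and 9.8% fell, and of genes averaging at least 10 CPM 17.9% rose and 19.5% fell. CHORDC1, an HSP90 partner with 3 overlapping element matches in its promoter (chr11:90200429-90223077, minus strand), was at 32.95, 34.7 and 32.9 CPM in H1047R insulin libraries, 25.2, 20.6 and 21.5 CPM in H1047R vehicle libraries, 25.6, 27.3 and 25.2 CPM in control insulin libraries, and 23.9, 23.6 and 19.8 CPM in control vehicle libraries. The H1047R insulin libraries lay well above the rest, and the log2 difference in H1047R cells was 0.58 ± 0.068 (adjusted p = 3.7e-09), the largest of the members in that comparison. HSP90AB1, the constitutive cytosolic HSP90 (chr6:44246166-44253888, plus strand), was at 1524, 1428 and 1502 CPM in H1047R insulin libraries, 1232, 1219 and 1195 CPM in H1047R vehicle libraries, 1245, 1257 and 1246 CPM in control insulin libraries, and 1117, 1100 and 1193 CPM in control vehicle libraries. It was highest in every H1047R insulin library, and rose in H1047R cells by 0.29 ± 0.035 (adjusted p = 7.11e-09). STIP1, the adaptor that joins HSP70 to HSP90 (chr11:64185272-64204543, plus strand), was at 332, 327 and 329 CPM in H1047R insulin libraries, 273, 263 and 269 CPM in H1047R vehicle libraries, 292, 296 and 312 CPM in control insulin libraries, and 248, 273 and 264 CPM in control vehicle libraries. Both insulin groups were above both vehicle groups, and STIP1 rose in H1047R cells by 0.30 ± 0.039 (adjusted p = 4.72e-08). The stress-inducible HSP90AA1 rose by 0.18 ± 0.038 (adjusted p = 0.00021), the immunophilin FKBP4 by 0.19 ± 0.038 (adjusted p = 6.85e-05) and the HSP90 ATPase activator AHSA1 by 0.20 ± 0.043 (adjusted p = 0.000173). PTGES3, the p23 co-chaperone, had a log2 difference of 0.01 with a 95% interval of -0.07 to 0.09. ST13, which binds HSP70 and slows its substrate release, was the member that fell: it averaged 238 ± 2.44 CPM in H1047R insulin libraries, 271 ± 9.12 CPM in H1047R vehicle libraries, 282 ± 3.10 CPM in control insulin libraries and 286 ± 1.30 CPM in control vehicle libraries (SD, n = 3 each), a log2 difference of -0.19 ± 0.037 (adjusted p = 6.99e-05).

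In the small heat shock protein group, BAG3 and HSPB8, whose products form a complex that hands damaged proteins to autophagy, rose, while HSPB1 was not called. BAG3 (chr10:119651380-119677819, plus strand) was at 89.1, 91.3 and 89.0 CPM in H1047R insulin libraries, 69.2, 66.2 and 63.7 CPM in H1047R vehicle libraries, 63.3, 59.4 and 64.9 CPM in control insulin libraries, and 57.3, 62.3 and 62.4 CPM in control vehicle libraries. The H1047R insulin libraries stood apart, the other groups lay close together, and BAG3 rose in H1047R cells by 0.44 ± 0.047 (adjusted p = 5.04e-10). HSPB8 (chr12:119171555-119224855, plus strand) was at 16.0, 16.1 and 16.3 CPM in H1047R insulin libraries, 12.8, 10.0 and 12.8 CPM in H1047R vehicle libraries, 12.9, 12.96 and 12.7 CPM in control insulin libraries, and 10.2, 10.2 and 10.9 CPM in control vehicle libraries. The second H1047R vehicle library was lower than the other libraries of its group, and HSPB8 rose in H1047R cells by 0.44 ± 0.080 (adjusted p = 1.91e-05). HSPB1, the most abundant small heat shock gene here (chr7:76302673-76304295, plus strand), was at 202, 200.4 and 206 CPM in H1047R insulin libraries, 221, 211 and 208 CPM in H1047R vehicle libraries, 239, 240.3 and 236 CPM in control insulin libraries, and 205, 228 and 220.0 CPM in control vehicle libraries. The control insulin libraries were the highest, and the insulin difference in H1047R cells was -0.07 ± 0.040 (adjusted p = 0.177).

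DNAJ proteins, the partners that bring substrates to HSP70, gave 2 calls of 5, both higher. Of all genes 9.85% rose, and of genes averaging at least 10 CPM 17.9% rose. DNAJA1 (chr9:33025273-33039907, plus strand) was at 348, 343 and 341 CPM in H1047R insulin libraries, 290.2, 269 and 288 CPM in H1047R vehicle libraries, 311, 317 and 325 CPM in control insulin libraries, and 292, 305 and 277 CPM in control vehicle libraries. DNAJB1 (chr19:14514769-14560391, minus strand) was at 270.0, 268 and 264 CPM in H1047R insulin libraries, 243, 219 and 223 CPM in H1047R vehicle libraries, 243, 251 and 271 CPM in control insulin libraries, and 221, 223 and 228 CPM in control vehicle libraries. Within H1047R cells the insulin and vehicle libraries were separate for both genes, with log2 differences of 0.29 ± 0.039 for DNAJA1 (adjusted p = 1.17e-07) and 0.23 ± 0.042 for DNAJB1 (adjusted p = 2.23e-05). DNAJB4 (chr1:77979175-78017964, plus strand) was at 48.9, 54.6 and 49.0 CPM in H1047R insulin libraries, 49.9, 52.4 and 57.1 CPM in H1047R vehicle libraries, 57.7, 63.0 and 58.3 CPM in control insulin libraries, and 59.7, 62.7 and 57.6 CPM in control vehicle libraries. Its plasmid groups overlapped each other and lay below both control groups. DNAJB6, which holds an element match, had a log2 difference of -0.16 with insulin in H1047R cells and missed the threshold (adjusted p = 0.00158).

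Mitochondrial HSPA9 and HSPD1 also rose with insulin in H1047R cells, and HSPE1 was not called. HSPA9, the mitochondrial HSP70 (chr5:138553756-138575675, minus strand), was at 562, 553 and 536 CPM in H1047R insulin libraries, 463, 428 and 450.2 CPM in H1047R vehicle libraries, 482, 482 and 469 CPM in control insulin libraries, and 423, 432 and 418 CPM in control vehicle libraries. HSPD1, the mitochondrial chaperonin (chr2:197486584-197516737, minus strand), was at 516, 518 and 501 CPM in H1047R insulin libraries, 434, 406 and 415 CPM in H1047R vehicle libraries, 467, 461 and 458 CPM in control insulin libraries, and 389, 396 and 397 CPM in control vehicle libraries. For both genes the groups followed the same order of means, H1047R insulin, control insulin, H1047R vehicle and control vehicle from high to low. HSPA9 rose in H1047R cells by 0.30 ± 0.036 (adjusted p = 8.49e-09) and HSPD1 by 0.29 ± 0.036 (adjusted p = 9.62e-09). HSPE1, the lid of that chaperonin, averaged 15.8 ± 0.67 CPM in H1047R insulin libraries and 16.1 ± 0.56 CPM in H1047R vehicle libraries (SD, n = 3 each), and its difference of -0.03 had a 95% interval of -0.20 to 0.15. The counts of members that share sequence with other genes are less certain, and HSPE1 shares 17.0% of its 50-base words with transcripts of other genes. Among called members the share was 30.7% for CCT5, 28.5% for ST13, 16.6% for HSP90AB1 and 14.4% for HSP90AA1. HSPE1-MOB4, the main gene sharing words with HSPE1, had 0 counts in every library, which does not show where reads of the shared sequence went. Whether reads of HSPE1 were lost to this shared sequence was not tested, so its level beside HSPD1 is uncertain.

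Of the heat shock factors, HSF1 rose and HSF2 was not called. HSF1 was at 36.9, 38.6 and 36.2 CPM in H1047R insulin libraries, 30.6, 30.6 and 31.4 CPM in H1047R vehicle libraries, 27.2, 28.1 and 30.3 CPM in control insulin libraries, and 29.5, 32.8 and 32.0 CPM in control vehicle libraries. Only the H1047R insulin libraries stood above the rest, and HSF1 rose in H1047R cells by 0.27 ± 0.057 (adjusted p = 0.000153). HSF2, a related factor that can pair with HSF1 (chr6:122399551-122433119, plus strand), was at 30.2, 31.4 and 31.2 CPM in H1047R insulin libraries, 31.6, 31.3 and 32.0 CPM in H1047R vehicle libraries, 33.7, 35.7 and 34.5 CPM in control insulin libraries, and 32.5, 32.8 and 33.5 CPM in control vehicle libraries. Its plasmid groups lay below its control groups in every library, without a call in any comparison.

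**Figure D2:**
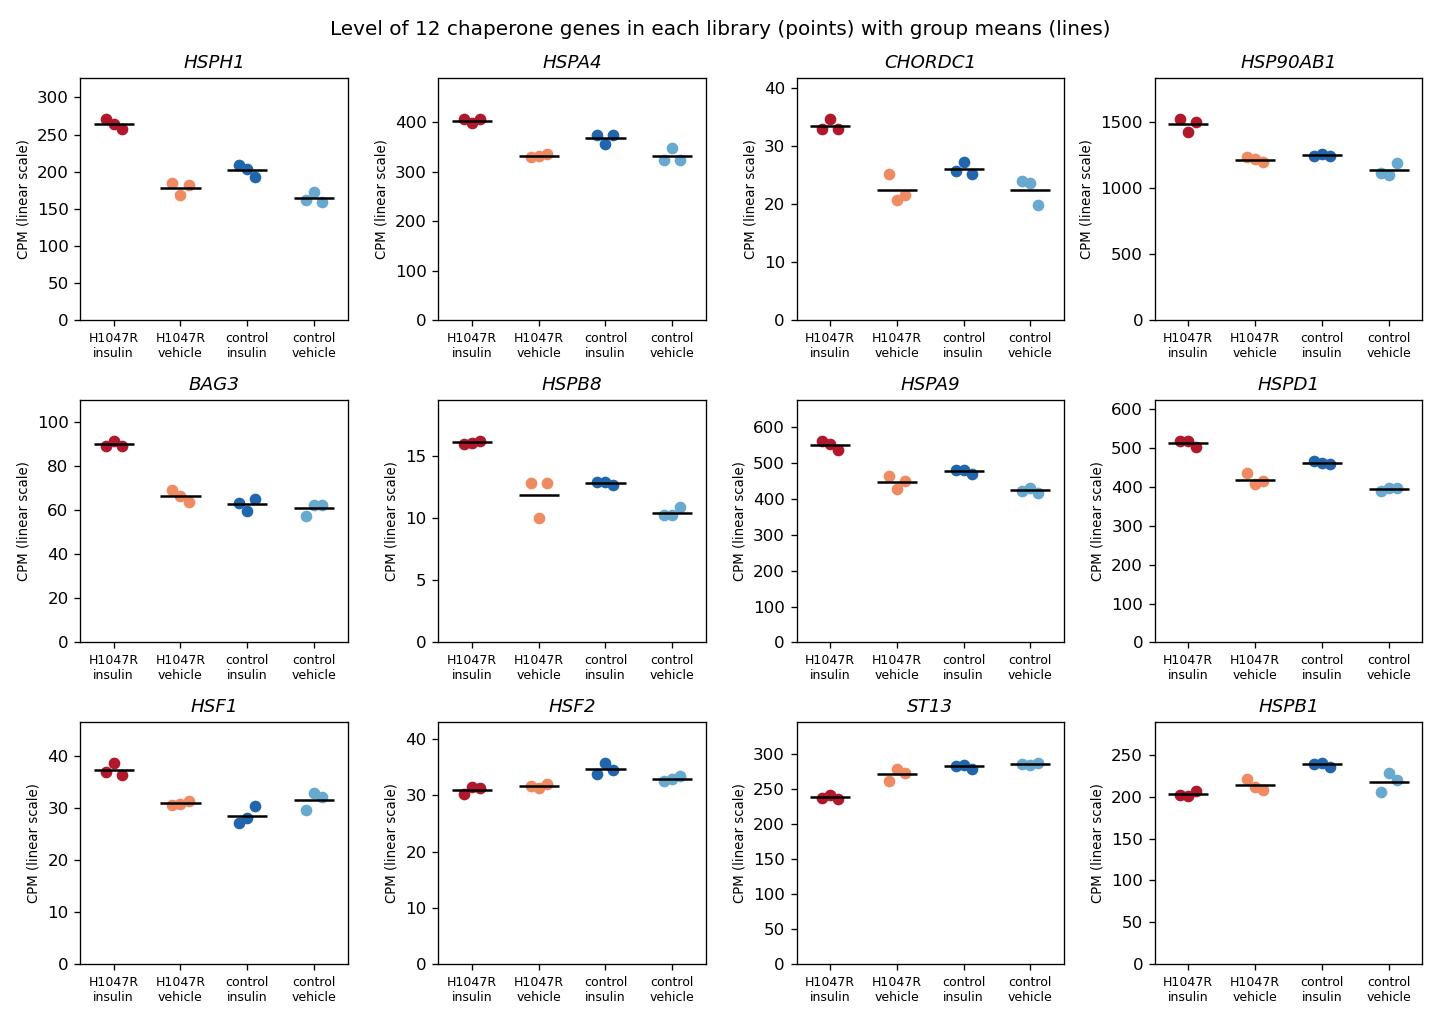
Level of 12 chaperone genes in CPM (vertical axis, linear) in each library (points) with the group mean (line), for H1047R insulin, H1047R vehicle, control insulin and control vehicle from left to right. HSPH1, CHORDC1, BAG3 and HSF1 are highest in all 3 H1047R insulin libraries, and ST13 is lowest there.

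Not every one of these calls held when a library was left out. Of the 19 calls, 8 were lost without at least 1 library, always in the same direction. HSP90AA1 was lost without H1047R insulin replicate 1 or 2 or H1047R vehicle replicate 2 or 3 (log2 differences of 0.15 to 0.17), AHSA1 without H1047R insulin replicate 3 or H1047R vehicle replicate 2 or 3 (0.18 to 0.19), CCT5 without H1047R insulin replicate 2 or H1047R vehicle replicate 3 (0.16 and 0.15), CCT7 without H1047R insulin replicate 2 or H1047R vehicle replicate 2 (0.18 and 0.17), and HSF1 without either of those libraries (0.24 and 0.27). HSPB8 (0.33) and ST13 (-0.16) were lost without H1047R vehicle replicate 2, and FKBP4 (0.17) without H1047R vehicle replicate 3.

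Of the 8 TRiC subunits, 2 rose with insulin in H1047R cells and none fell, beside 9.85% of all genes and 17.9% of genes averaging at least 10 CPM that rose. The median log2 difference of the subunits was 0.08. CCT5 (chr5:10249929-10266389, plus strand) was at 501, 508 and 494 CPM in H1047R insulin libraries, 448, 453 and 430 CPM in H1047R vehicle libraries, 451, 467 and 472 CPM in control insulin libraries, and 422, 420 and 409 CPM in control vehicle libraries. CCT7 (chr2:73233420-73253021, plus strand) was at 371, 383 and 374 CPM in H1047R insulin libraries, 342, 321 and 327 CPM in H1047R vehicle libraries, 340, 351 and 351 CPM in control insulin libraries, and 311, 344 and 319 CPM in control vehicle libraries. Both were highest in all 3 H1047R insulin libraries, and rose in H1047R cells by 0.18 ± 0.036 for CCT5 (adjusted p = 9.93e-05) and 0.19 ± 0.039 for CCT7 (adjusted p = 0.000117). CCT8 (chr21:29055805-29073797, minus strand) was at 446, 454 and 458 CPM in H1047R insulin libraries, 481, 460 and 477 CPM in H1047R vehicle libraries, 492, 532 and 505 CPM in control insulin libraries, and 497, 521 and 443 CPM in control vehicle libraries. It was lowest on average in the H1047R insulin group, and the control vehicle libraries overlapped each of the other groups. In H1047R cells the insulin differences of the other subunits, none of them called, were 0.10 for TCP1, 0.06 for CCT2, 0.02 for CCT3, 0.05 for CCT4 and 0.11 for CCT6A. In control cells all 8 subunits had a positive insulin difference, 0.07 to 0.16, and none was called.

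Since TRiC holds its subunits in equal numbers, their levels were also compared per length, as CPM per kilobase of the GENCODE canonical transcript. CCT8 was the highest at 244 ± 3.43 in H1047R insulin libraries, 255 ± 5.95 in H1047R vehicle libraries, 275 ± 10.9 in control insulin libraries and 263 ± 21.5 in control vehicle libraries (SD, n = 3 each). CCT3 was the lowest, with means of 115, 114, 124 and 117 CPM per kilobase in the same groups in that order. The ratio of the highest to the lowest subunit was 2.11 in H1047R insulin libraries, 2.24 in H1047R vehicle libraries, 2.21 in control insulin libraries and 2.24 in control vehicle libraries, so the subunit messages were of like but not equal level. Over all 12 libraries the 28 pairs of subunits had Pearson correlations of log2 CPM with a median of 0.63 (lowest -0.27, highest 0.94), and a median of 0.34 after the group means were taken out. These correlations describe libraries that share groups and depth. Across all members, the highest levels per length in control vehicle libraries were those of HSPA8 at 653, HSP90AA1 at 604 and HSP90AB1 at 445 CPM per kilobase.

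**Figure D3:**
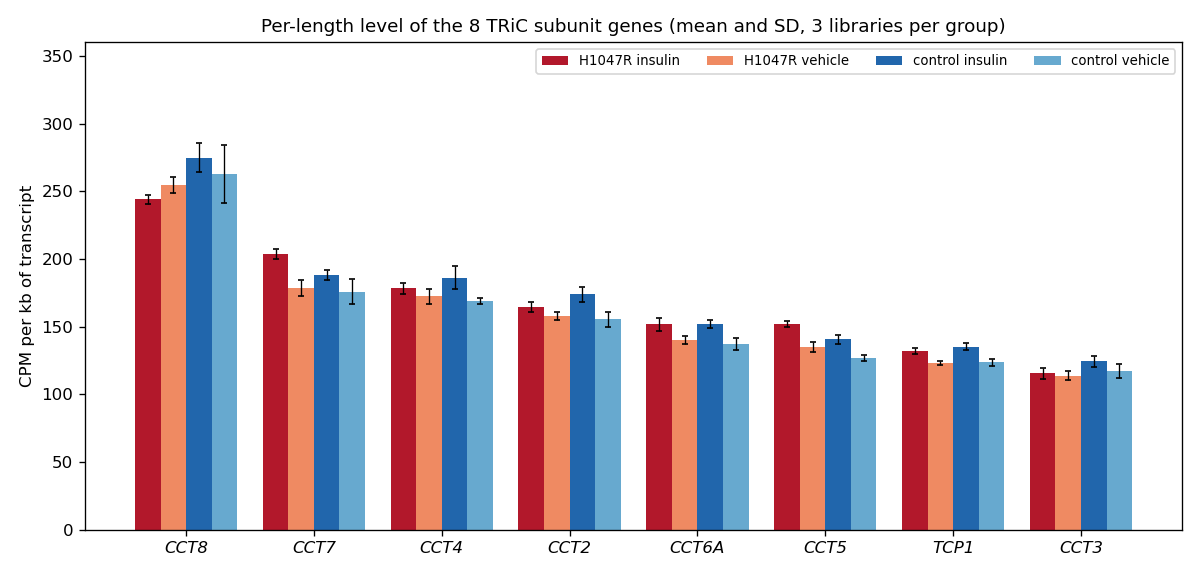
Level of the 8 TRiC subunit genes per transcript length (CPM per kilobase, bars for the mean and lines for the SD of 3 libraries), for H1047R insulin, H1047R vehicle, control insulin and control vehicle from left to right within each gene. CCT8 is the highest and CCT3 the lowest subunit in every group, and CCT8 is the subunit whose H1047R insulin bar is the lowest of its 4.

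The second comparison asks what insulin did in control cells. Few members passed the test, and most differences were positive: 4 of 35 rose (HSPH1, FKBP4, STIP1 and HSPD1) and none fell, while 0.483% of all genes rose and 1.15% fell, 1.63% in all. Among genes averaging at least 10 CPM 1.06% rose and 2.54% fell, against 4 and 0 of 32 members. The count of members was 7 with DESeq2 and 7 with no filter on low counts, none of them lower. The median log2 difference of the members was 0.14, against 0.00 for all genes, and 30 of 35 were positive. At an unadjusted p under 0.05 there were 26 members, and 16.4% of all genes. The control insulin and control vehicle libraries did not overlap for 23 of 35 members, and for 20.3% of all genes. HSPH1 rose by 0.29 ± 0.043 on the log2 scale (adjusted p = 5.95e-06), HSPD1 by 0.23 ± 0.036 (adjusted p = 1.68e-05), FKBP4 by 0.21 ± 0.038 (adjusted p = 0.000176) and STIP1 by 0.20 ± 0.039 (adjusted p = 0.000689). FKBP4 averaged 207 ± 1.96 CPM in control insulin libraries and 179 ± 2.15 CPM in control vehicle libraries (SD, n = 3 each). BAG3 had a difference of 0.04 with a 95% interval of -0.07 to 0.16, and HSF1 one of -0.14 with an interval of -0.28 to -0.01 that did not pass after adjustment (adjusted p = 0.186). Without control insulin replicate 2 or control insulin replicate 3 there were 2 calls, HSPH1 and HSPD1, since FKBP4 (0.21) and STIP1 (0.21 and 0.17) were then lost. FKBP4 was also lost without control vehicle replicate 2 (0.20), and STIP1 without control vehicle replicate 1 (0.16) or 3 (0.20). STIP1 was lost too without any 1 of the H1047R insulin libraries (0.20). Those libraries are outside this comparison but enter the count filter, the scaling and the estimate of spread.

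The third comparison sets H1047R cells against control cells, both with insulin. Members moved in both directions: 9 of 35 were higher in H1047R cells and 4 were lower, while 11.4% of all genes were higher and 12% lower, 23.5% in all. Among genes averaging at least 10 CPM 19.7% were higher and 23.7% lower, and all 13 called members were among the 32 members at that level. Scaled by library totals or with DESeq2, the split of the members was 12 higher and 2 lower. Libraries did not overlap for 26 of 35 members and for 48.5% of all genes, and the median log2 difference was 0.02 for the members and -0.02 for all genes. BAG3 was higher by 0.52 ± 0.047 on the log2 scale (adjusted p = 3.26e-12), HSPH1 by 0.39 ± 0.042 (adjusted p = 3.27e-10), HSF1 by 0.39 ± 0.056 (adjusted p = 3.13e-07) and CHORDC1 by 0.36 ± 0.066 (adjusted p = 1.48e-05). HSPB8 (0.33), HSP90AB1 (0.25), HSPA9 (0.20), AHSA1 (0.18) and HSPD1 (0.15) were the other members called higher. The 4 lower members were ST13 with -0.25 ± 0.037 (adjusted p = 5.04e-07), HSPB1 with -0.23 ± 0.040 (adjusted p = 5.74e-06), DNAJB4 with -0.23 ± 0.054 (adjusted p = 0.000459) and CCT8 with -0.17 ± 0.042 (adjusted p = 0.000922). There were 8 calls without control insulin replicate 2, H1047R insulin replicate 1 or H1047R insulin replicate 3. AHSA1 (0.16 to 0.20), HSPB8 (0.32 to 0.33) and HSPD1 (0.14 to 0.16) lost their call without any 1 of the 6 insulin libraries, DNAJB4 without those 3 libraries (-0.21 to -0.19) and with DESeq2 (-0.21) or library totals (-0.20), and CCT8 without each insulin library other than control insulin replicate 1 (-0.18 to -0.14), without H1047R vehicle replicate 1 (-0.14) and with either of those scalings (-0.15 and -0.13).

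The fourth comparison sets the plasmids against each other without insulin. None of 35 members was called, with DESeq2 as with edgeR, while 0.158% of all genes were called (0.141% higher and 0.0176% lower), and 11 members had an unadjusted p under 0.05, against 11.9% of all genes. Libraries did not overlap for 9 of 35 members and for 14.4% of all genes. Among members above 1 CPM the largest differences were 0.19 for HSPB8 (adjusted p = 0.387) and -0.18 for DNAJB4, with a 95% interval of -0.30 to -0.05 (adjusted p = 0.113). HSPH1 had a difference of 0.11 with a 95% interval of 0.01 to 0.21, BAG3 one of 0.13 with an interval of 0.02 to 0.24, and HSF1 one of -0.03 with an interval of -0.16 to 0.11. PIK3CA averaged 721 ± 11.5 CPM in H1047R insulin libraries and 235 ± 68.2 CPM in H1047R vehicle libraries (SD, n = 3 each), so this comparison was made at a lower level of the plasmid gene, and whether that bears on the number of calls was not tested.

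Whether the insulin effect differed between H1047R and control cells was tested as the difference of the 2 effects. It passed for 3 of 35 members, all higher in H1047R cells, while 9.07% of all genes passed, 4.58% in that direction and 4.49% in the other. Among genes averaging at least 10 CPM the shares were 9.03% and 9.33%, against 3 and 0 of 32 members, so the count of higher members was near that share. HSF1 differed by 0.41 ± 0.082 on the log2 scale (adjusted p = 0.000162), BAG3 by 0.39 ± 0.068 (adjusted p = 2.16e-05) and HSPH1 by 0.28 ± 0.060 (adjusted p = 0.000468). For BAG3 the insulin effect was 0.44 in H1047R cells and 0.04 in control cells, for HSPH1 0.57 and 0.29, and for HSF1 0.27 and -0.14. CHORDC1 came next with a difference of 0.37 ± 0.098, which did not pass (adjusted p = 0.00424). Most members that rose in H1047R cells were thus not shown to respond differently from control cells. PIK3CA averaged 721 CPM with insulin and 235 CPM with vehicle in H1047R cells, against 82.6 and 88.6 CPM in control cells. The difference of the insulin effects therefore also holds this change in plasmid level, and its part was not tested. BAG3 was called in every alternative, but without control vehicle replicate 2 or H1047R insulin replicate 2 it was the only call left, since HSF1 (0.38 and 0.39) and HSPH1 (0.24 and 0.28) were lost. HSPH1 was also lost without control insulin replicate 2 (0.29) or 3 (0.25), H1047R insulin replicate 1 (0.26) or H1047R vehicle replicate 2 (0.24).

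**Figure D4:**
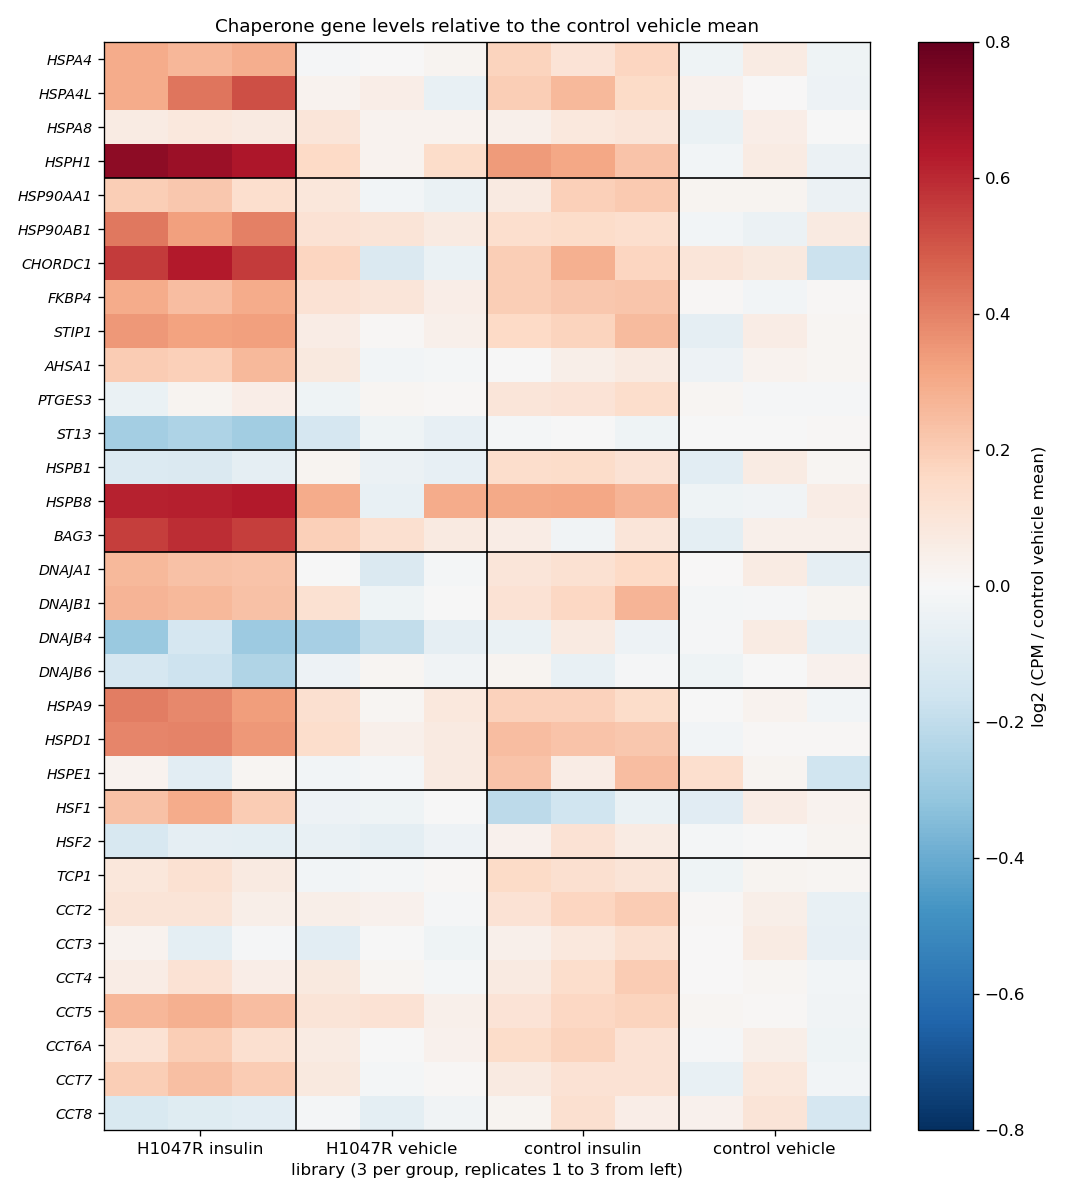
Level of each chaperone gene averaging at least 1 CPM in each of the 12 libraries, as log2 of its CPM over the control vehicle mean (red higher, blue lower), with libraries grouped as H1047R insulin, H1047R vehicle, control insulin and control vehicle from left to right and genes ordered by role. HSPH1, CHORDC1, HSPB8 and BAG3 are the reddest in all 3 H1047R insulin libraries, while ST13, DNAJB4 and CCT8 are blue there.

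The element matches and the shared sequence of the members were set beside the calls. With insulin in H1047R cells, 5 of the 7 members with an element match rose, with a median log2 difference of 0.29, and 11 of 23 tested members with a window and no match rose, with a median of 0.10. With insulin in control cells 1 of the 7 and 2 of the 23 rose. The set without a match holds HSPH1, DNAJB1, BAG3 and HSPB1, and imperfect elements were not searched for, so it is not a set shown to lack elements. Because the share of reads mapping to several places was lower in the H1047R insulin libraries, members were also divided by the share of their 50-base words found in transcripts of other genes. Of 16 members with at most 5% shared, 10 rose and none fell with insulin in H1047R cells, and of 19 members above 5%, 8 rose and 1 fell. All 3 members whose insulin effects differed between H1047R and control cells were in the set with at most 5% shared. The words were taken from annotated transcripts and compared with any other gene on either strand, genes at the same locus included. They therefore do not measure how reads were placed on the genome. The part of the mapping difference in these calls was not tested.

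Other genes of the chaperone system were called in both directions. From 85 listed relatives, cofactors and clients, 84 were found and 80 tested. With insulin in H1047R cells 12 of the 80 rose and 10 fell, with a median log2 difference of 0.04, while 9.85% of all genes rose and 9.8% fell, and 17.9% and 19.5% of genes averaging at least 10 CPM. HSPA5, the HSP70 of the endoplasmic reticulum, rose: it averaged 630.0 ± 5.29 CPM in H1047R insulin libraries, 446 ± 24.3 CPM in H1047R vehicle libraries, 483 ± 9.51 CPM in control insulin libraries and 410 ± 13.8 CPM in control vehicle libraries (SD, n = 3 each), a log2 difference of 0.50 ± 0.038 in H1047R cells (adjusted p = 5.27e-14) and 0.23 ± 0.038 in control cells (adjusted p = 3.69e-05). HSPA2, an HSP70 best known from the testis, fell in H1047R cells by 0.62 ± 0.046 (adjusted p = 2.45e-14), with 57.5 ± 0.54 CPM in H1047R insulin libraries and 88.3 ± 2.52 CPM in H1047R vehicle libraries (SD, n = 3 each). Mitochondrial relatives rose in 3 of 6 cases, namely GRPEL1, the nucleotide exchange factor of HSPA9, by 0.58, and the proteases LONP1 by 0.32 and CLPP by 0.24. Among DNAJ relatives, the ribosome-bound DNAJC2 rose by 0.51 and DNAJB5 by 0.35, and DNAJC21 had a difference of -0.15 that was not called. Of HSP90 co-chaperones and BAG genes, 3 rose and 1 fell of 18, among them TOMM34 with 0.49, NUDC with 0.30 and PIH1D1 with -0.31. Of the genes around the heat shock factors, IER5, which activates HSF1, rose by 0.46 and DEDD2 by 0.26. CLPP lost its call without H1047R insulin replicate 2 or 3 or H1047R vehicle replicate 2 or 3 (0.20 to 0.24), DEDD2 without H1047R insulin replicate 1 or 3 or H1047R vehicle replicate 2 or 3 (0.24 to 0.26), DNAJB5 without H1047R vehicle replicate 2 (0.30), and HSPA5 in control cells without control vehicle replicate 1 (0.21).

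Folding clients of TRiC and genes that work with it were counted in the same comparison. Of 13 actin, tubulin and tubulin cofactor genes, 1 rose and 6 fell with insulin in H1047R cells. Of all genes 9.85% rose and 9.8% fell, and of genes averaging at least 10 CPM 17.9% rose and 19.5% fell. TUBB, a beta tubulin, lost its call without H1047R insulin replicate 1 or 2 or H1047R vehicle replicate 2 (-0.20 to -0.18), and TUBA1A, an alpha tubulin, without H1047R vehicle replicate 1 (-0.16). ACTG1, cytoplasmic gamma actin, averaged 2716 ± 38.5 CPM in H1047R insulin libraries, 3697 ± 155 CPM in H1047R vehicle libraries, 3639 ± 65.2 CPM in control insulin libraries and 3747 ± 26.1 CPM in control vehicle libraries (SD, n = 3 each), and fell in H1047R cells by 0.44 ± 0.032 (adjusted p = 7.85e-15). TUBA1B, another alpha tubulin, fell by 0.25 ± 0.038 (adjusted p = 6.38e-07), while the tubulin cofactor TBCC rose by 0.29 ± 0.059 (adjusted p = 8.28e-05). Of 11 genes of prefoldin, which passes clients to TRiC, and other TRiC cofactors, 2 fell and none rose. That count is near the 19.5% of genes averaging at least 10 CPM that fell. PFDN5 fell by 0.35 ± 0.046 (adjusted p = 4.11e-08) and PFDN4 by 0.28 ± 0.057 (adjusted p = 9.93e-05). VBP1, another prefoldin subunit, had a difference of -0.13 that was not called with insulin in H1047R cells, and was lower by 0.35 in H1047R cells than in control cells with insulin. With insulin in control cells, HSPA5 and SERPINH1, a collagen chaperone (0.20 ± 0.038, adjusted p = 0.000499), were the only calls among the 80. In that comparison 1.63% of all genes were called, and of genes averaging at least 10 CPM 1.06% rose and 2.54% fell. PFDN4 lost its call without H1047R insulin replicate 1 or 3 (-0.26), and SERPINH1 without control insulin replicate 2 or 3 or control vehicle replicate 2 or 3 (0.16 to 0.20). Without insulin none of the 80 was called between H1047R and control cells by edgeR or by DESeq2, while edgeR called 0.158% of all genes. With edgeR 14 of the 80 had an unadjusted p under 0.05, against 11.9% of all genes.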

How the data were processed

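RNA-seq of 12Z cells was deposited as 12 tables of read counts per gene. The deposited counts were made by the authors with STAR on hg38 after trimming with cutadapt and Trim Galore and checks with FastQC, in versions not given in the sources used here. In the methods, the named annotation is a mouse release, whereas the gene identifiers are human. Of 60617 identifiers 60357 matched the gene table and 42009 had a symbol. The reverse-strand counts were used, since these held 93.5% to 93.7% of the stranded gene counts. Summary rows were left out of library sizes. Their shares of reads ran over 3.12% to 4.09% (unmapped), 8.48% to 15.4% (multiply mapped), 3.91% to 4.55% (no feature) and 3.31% to 3.61% (ambiguous).

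All genes with a mean of 1 count or more were fitted, with the 4 groups together, in edgeR 4.0.16 (limma 3.58.1, R 4.3.3), by TMM scaling and the quasi-likelihood test. Adjusted p is Benjamini-Hochberg over 22756 genes, and a gene was called at 0.001. SE is the log2 fold change divided by the root of F, and 95% intervals use 8 residual degrees of freedom. Alternatives were DESeq2 1.42.0, library totals, other filters, unstranded counts, a replicate block and leaving out each library. The authors' list of tools also names DESeq2. Per-library values were given for up to 3 called members of each role with the largest change and always for HSPA1A, HSPA1B, HSF1 and HSF2, and up to 3 called genes of each further list were named. The members and lists were chosen with earlier results of these data known.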

Additional observations from a re-analysis of the deposited data

Results flagged for a closer look

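Genes whose insulin effect differed between H1047R and control cells, by the edgeR test of the difference itself, are given here as the effect in H1047R cells minus that in control cells on the log2 scale. Among the 36 members these were HSF1 (0.41), BAG3 (0.39) and HSPH1 (0.28). Among the other chaperone genes the difference was positive for IER5 (0.54), DNAJC2 (0.46), TBCC (0.41), TOMM34 (0.35), NUDC (0.27) and HSPA5 (0.26). It was negative for HSPA2 (-0.52), ACTG1 (-0.40), TUBA1B (-0.38), PFDN5 (-0.31) and SERPINH1 (-0.27). SERPINH1 was at 661 ± 21.01 CPM in H1047R insulin libraries, 694 ± 12.8 CPM in H1047R vehicle libraries, 832 ± 45.0 CPM in control insulin libraries and 725 ± 26.3 CPM in control vehicle libraries (SD, n = 3 each). Leaving out single libraries kept every direction, but HSPA5 (0.24 to 0.26), NUDC (0.24 to 0.28), TOMM34 (0.30 to 0.34), PFDN5 (-0.30 to -0.26), SERPINH1 (-0.24 to -0.23) and TBCC (0.40) each missed the threshold without 1 of several libraries. Those for TBCC were control vehicle replicate 2, H1047R insulin replicate 2 and H1047R insulin replicate 3, and those for SERPINH1 were control insulin replicate 3, control vehicle replicate 2 and H1047R insulin replicate 3. Control vehicle replicate 2 or H1047R vehicle replicate 2 was among them for HSPA5, NUDC, TOMM34 and PFDN5.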

How the results depend on the processing

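Directions did not change in any of 702 recomputed values of called members under the alternatives: 631 stayed past the threshold and 71 did not, and 22 of 39 calls held throughout. For the other chaperone genes 1089 of 1206 values stayed past it, and none turned. The insulin effect in control cells gave 7 called members with DESeq2 and 7 with no filter on low counts, in place of 4, and these included the 4. Leaving out 1 library at a time gave 13 to 19 called members for insulin in H1047R cells, 2 to 6 for insulin in control cells, 8 to 15 for H1047R with insulin, 0 to 0 for H1047R with vehicle and 1 to 4 for the difference of the insulin effects. Pairing by replicate number was weak at most: same-numbered libraries correlated at -0.09 to 0.21 after group means were taken out, with 2 of 12 pairs above 0.1. In 5 of 12 pairs the same number gave the best correlation. For insulin in H1047R cells it did so for each replicate, at 0.21, 0.14 and 0.05 against -0.12, 0.12 and -0.01 for the best other number. With the replicate number as a block, the called members were 19 for insulin in H1047R cells, 4 for insulin in control cells, 11 for H1047R with insulin, 0 for H1047R with vehicle and 3 for the difference, and AHSA1 and HSPD1 lost their call for H1047R with insulin. A filter of at least 1 CPM in 3 libraries took single calls from HSP90AA1, STIP1 and CCT8. CRYAB and DNAJA4 averaged below 1 CPM and were not called, and the counts of HSPA1A and HSPA1B were not read as levels.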
